A study of Mus musculus with 4 samples.

Results

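The germ cell niche of the adult mouse testis was examined through 10 genes that encode its best known secreted signals and their receptors: Gdnf with its receptor genes Gfra1 and Ret, Kitl with Kit, Cxcl12 with Cxcr4, and the inhibin and activin subunit genes Inha, Inhbb and Inhba. The genes were taken by symbol from the gene list of the count matrices, and all 10 were found among 55357 genes. Their raw UMI counts (a UMI is a tag that marks 1 captured RNA molecule) were read in 4 single-nucleus RNA-seq libraries of whole testis from male mice aged 8 weeks. The labels name 2 biological replicates WT and 2 CKO, and the latter are called Dhx37-/- here. The Dhx37-/- mice carried Dhx37 alleles with loxP sites (Dhx37 flox/flox, on a C57BL/6-based background) and the Amh-Cre transgene, in which the promoter of anti-Mullerian hormone drives Cre in Sertoli cells from fetal life on, so every other testis cell kept Dhx37. Whether the WT mice carried a floxed allele or the transgene, and whether 1 library came from 1 mouse, are not given in the sources used here. The comparisons addressed 2 questions: which testis nuclei held each ligand and each receptor, and whether the levels differed between genotypes.

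In the seminiferous tubule, Sertoli cells nurse the germ cells and release signals that decide whether spermatogonia renew or differentiate. GDNF binds the surface co-receptor GFRA1, which then engages the kinase RET, and this pathway is known for keeping undifferentiated spermatogonia. Stem cell factor, the product of Kitl, binds the kinase KIT, which marks differentiating spermatogonia and is also carried by Leydig cells. The chemokine CXCL12 guides cells that carry CXCR4. Inhibin B is made of the alpha subunit (Inha) and the beta B subunit (Inhbb) and lowers the release of follicle-stimulating hormone from the pituitary, whereas dimers of beta subunits (Inhbb, Inhba) form activins, which raise it.

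The deposited matrices held 51797891 to 75611263 UMIs per library. After empty droplets were removed, 8295 to 10048 nuclei per library were kept, with a median of 3302 to 4152 UMIs per nucleus, and any 2 libraries shared 19 to 29 barcodes. Nuclei were put into 12 classes by marker genes, none of which was among the 10 genes, and the class names below mean nuclei like that cell type in its markers. The gate for Sertoli nuclei took 49 and 17 nuclei from WT replicates 1 and 2, and 162 and 230 from Dhx37-/- replicates 1 and 2. Levels are written as CPM, UMIs per 1000000 UMIs of the same nuclei. The 12 Sertoli markers summed to 4357 and 4579 CPM in these WT nuclei and to 4233 and 4537 CPM in these Dhx37-/- nuclei, and 11 of the 12 markers were raised in them. The gate for spermatogonia took 18, 9, 19 and 48 nuclei, with WT first. Their 16 markers summed to 2510, 2366, 2154 and 2125 CPM in these nuclei, and 13 of the 16 were raised. The early meiotic markers stood almost as high there, at 2097, 1951, 1830 and 2040 CPM, against 5218, 4628, 6335 and 6400 CPM in early meiotic nuclei. The 2 classes are thus not cleanly apart in their markers. In all, 207 nuclei lay near the limit of the spermatogonia gate, on either side of it and whatever class they entered. Only 17 Sertoli nuclei and 9 spermatogonia stood behind WT replicate 2. No marker of their own stood among the 10 leading genes of the spermatocyte, round spermatid and elongating spermatid classes, so these 3 names rest on marker shares alone. Between 24.4% and 55.9% of a library's nuclei entered no class, with the WT libraries at 55.9% and 48.9% and the Dhx37-/- libraries at 24.4% and 31.6%. Dhx37 itself was read at 7.06 and 11.8 CPM in WT nuclei and at 10.4 and 10.6 CPM in Dhx37-/- nuclei. Only 2, 3, 5 and 11 Dhx37 UMIs came from Sertoli nuclei. The counts do not tell where in the gene these reads lie, so they do not check the deletion. RNA was counted without regard to gene length, so only levels of the same gene are compared.

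**Figure D1:**
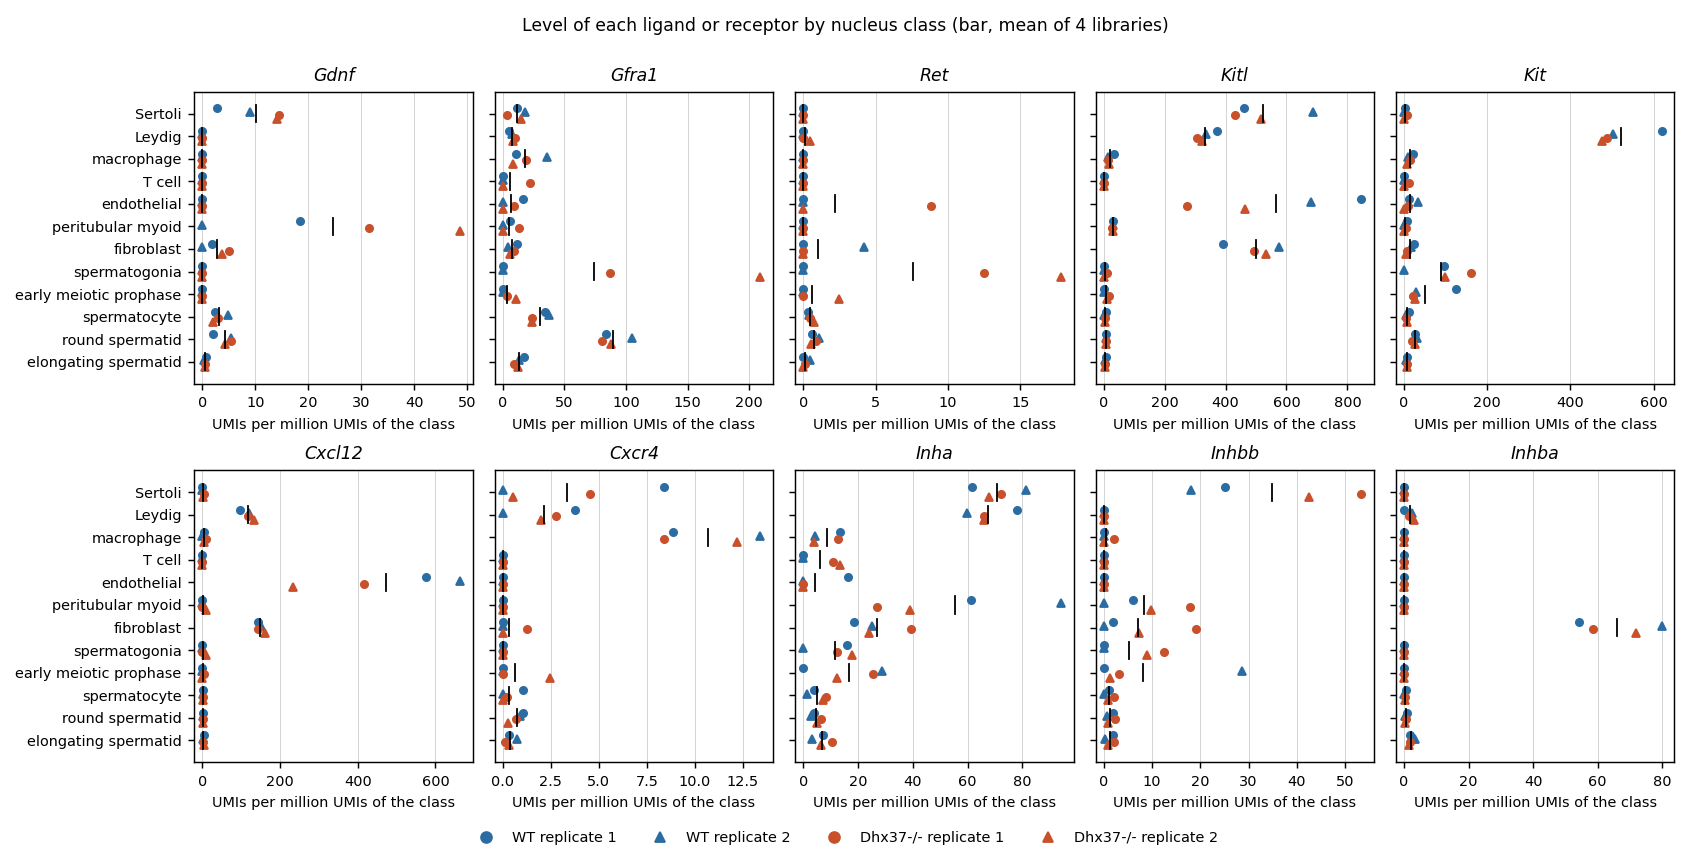
Level of each of the 10 genes (x axis, UMIs per 1000000 UMIs of the class) in 12 classes of nuclei (y axis). Each point is 1 library, circles and triangles mark replicates 1 and 2, blue marks WT and red Dhx37-/-, and the vertical bar is the mean of the 4 libraries. Kitl was spread over endothelial, Sertoli, fibroblast and Leydig nuclei, Kit stood highest in Leydig nuclei, Inhbb in Sertoli nuclei and Inhba in fibroblast nuclei.

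Kitl was held by 4 somatic classes. In Sertoli nuclei it measured 462 and 686 CPM in WT, against 431 and 516 CPM in Dhx37-/- (524 ± 114, SD, n = 4). In fibroblast nuclei it measured 392 and 575 CPM in WT, and 495 and 532 CPM in Dhx37-/-. In endothelial nuclei it measured 845 and 679 CPM in WT, and 274 and 465 CPM in Dhx37-/-, with only 7 endothelial nuclei in the last library. The ranges of these 3 classes overlapped, so their order could not be told from the 4 libraries. Leydig nuclei, the steroid-making cells between the tubules, held 373, 335, 306 and 322 CPM, below every Sertoli library. Every other class had a mean of at most 29.5 CPM, and T cells had 0 UMIs, which puts the endothelial level at least 42.0-fold higher than the level that 3 counts would give over the T cell libraries together.

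The levels of 8 classes were compared in 1 edgeR quasi-likelihood fit with library as a block. Sertoli nuclei and spermatogonia were included although they fell short of the limit of 20 nuclei in every library. Sertoli nuclei numbered 17 in WT replicate 2, and spermatogonia 18 and 9 in WT and 19 in Dhx37-/- replicate 1. In this fit 7 of the 10 genes passed the filter on low counts. Gdnf, Ret and Cxcr4 did not pass it. Sertoli nuclei exceeded macrophage nuclei in Kitl by 4.86 ± 0.28 on the log2 scale (SE, edgeR adjusted p = 8.71e-22). In this comparison 43.4% of all genes were called and 4 of the 7 niche genes. Kitl was also higher in Sertoli nuclei than in spermatocytes, round spermatids and elongating spermatids, by 5.83 to 7.24 on the log2 scale, and than in spermatogonia, which held 1 Kitl UMI in all. Against Leydig nuclei the difference was 0.46 ± 0.19 (adjusted p = 0.055), and against fibroblast nuclei 0.20 ± 0.19 (adjusted p = 0.455), so neither passed the threshold of 0.05. With all 12 classes in the fit, Kitl in Sertoli nuclei differed from endothelial nuclei by 0.35 ± 0.25 (adjusted p = 0.288). To allow for depth, nuclei were also thinned to 2000 UMIs each, and 55.7% of WT and 53.4% of Dhx37-/- Sertoli nuclei then still held a Kitl UMI. Unthinned, the shares in Sertoli nuclei ran from 69.1% to 82.4% by library. Of elongating spermatids, germ cells that should lack Kitl, 1.05% and 0.956% held a UMI after thinning. The median depth was 7888 UMIs in Sertoli nuclei and 3001 in elongating spermatids, and thinning left out 5 WT and 34 Dhx37-/- Sertoli nuclei that were shallower.

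Most class comparisons called many genes, and the counts of niche genes are read against that background. In Sertoli nuclei against spermatogonia, 29.4% of all genes and 5 of the 7 niche genes were called. Against spermatocytes, round spermatids and elongating spermatids, 72%, 78.7% and 77.7% of all genes were called, and 4, 5 and 4 of the 7. Spermatogonia against macrophage and fibroblast nuclei gave 28.1% and 24.5% of all genes, and 3 and 5 of the 7. Spermatogonia against spermatocytes, round spermatids and elongating spermatids gave 49.5%, 62.4% and 61.6% of all genes, and 2 of the 7 in each. Against early meiotic nuclei in the fit of all 12 classes, Sertoli nuclei gave 42.6% of all genes and 4 of the 7, and spermatogonia 11.9% of all genes and 2 of the 7. Those 2 were Gfra1, higher in spermatogonia by 3.69 ± 0.58 (edgeR adjusted p = 2.14e-06), and Kit, higher by 1.31 ± 0.43 (adjusted p = 0.0308). Both classes held 0 Gfra1 UMIs in WT, so that call came from the Dhx37-/- libraries. At 2000 UMIs a nucleus, Kit was read in 1 of 24 WT spermatogonia (4.17%, 95% exact binomial interval 0.105% to 21.1%). In WT early meiotic nuclei it was read in 6 of 36 (16.7%, 6.37% to 32.8%). These intervals overlapped, so the order of the 2 classes in WT could not be told by this measure. In Dhx37-/- it was read in 23.3% (13.4% to 36.0%) against 5.15% (2.84% to 8.49%). These shares pool the nuclei of 2 libraries and carry no error between libraries.

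Kit, the receptor gene for the product of Kitl, was highest in Leydig nuclei in every library. It measured 619 and 502 CPM in WT Leydig nuclei and 488 and 476 CPM in Dhx37-/- Leydig nuclei. In spermatogonia, the germ cells known for KIT, it measured 95.3 and 0 CPM in WT, and 162 and 98.0 CPM in Dhx37-/-. The value of 0 came from 9 nuclei and allows a level of up to 95.9 CPM. Early meiotic nuclei held 22.2 to 124 CPM, a range that overlapped spermatogonia, and round spermatids 19.1 to 31.9 CPM. After thinning, a smaller share of early meiotic nuclei than of spermatogonia held Kit in Dhx37-/-. In WT the shares rested on 6 early meiotic nuclei and 1 spermatogonium with Kit, and their intervals overlapped. Spermatids are known to make a shortened Kit transcript, which counting at the 3′ end does not separate from the full one. Sertoli nuclei held 1, 0, 8 and 2 Kit UMIs.

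Kit was lower in Sertoli than in Leydig nuclei, with a log2 difference of -7.31 ± 0.36 (edgeR adjusted p = 1.94e-24). There, 36.8% of all genes were called and 4 of the 7 niche genes. Kit in spermatogonia was also lower than in Leydig nuclei, with a difference of -3.22 ± 0.29 (adjusted p = 1.98e-13), beside 28.7% of all genes called and 6 of the 7 niche genes. Kit in spermatogonia was above Kit in the macrophage, fibroblast, spermatocyte, round spermatid and elongating spermatid classes. The last 3 differences were 3.38 ± 0.41, 1.02 ± 0.35 and 3.06 ± 0.40. The one against round spermatids (adjusted p = 0.009) was lost in 5 of 11 alternative analyses, among them those without Dhx37-/- replicate 1 and without Dhx37-/- replicate 2. Kit and Kitl were read in the same Leydig nuclei, with Kit in 735, Kitl in 625 and both in 545 of 887 nuclei, where the product of the shares would give 518. Leydig nuclei held 5773 UMIs at the median, and the number of nuclei with both genes also depends on depth, so it is given as a description.

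Gdnf was sparse, with 393 UMIs in all nuclei kept. In Sertoli nuclei, the textbook source, it gave 1 and 1 UMI in WT, and 16 and 27 UMIs in Dhx37-/-, which are 2.80, 9.03, 14.5 and 14.0 CPM. Peritubular myoid nuclei, the contractile cells around the tubule that are also known to release GDNF, held 18.4, 0, 31.4 and 48.6 CPM from 15 UMIs. The libraries of both classes overlapped. Leydig nuclei held 0 Gdnf UMIs among 5304378, so the pooled level of 28.8 CPM in peritubular myoid nuclei was at least 51.0-fold higher than the level of 3 counts over those libraries. No Gdnf UMI was read in macrophage, T cell, endothelial, spermatogonia or early meiotic nuclei either. Round spermatids, at 2.05 to 5.47 CPM, gave 126 of the 393 UMIs, which is 32.1% of the Gdnf UMIs from 19.5% of all UMIs.

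Of the GDNF receptor genes, Gfra1 was read mainly outside the spermatogonia. Round spermatids held 83.9 and 105 CPM in WT, and 80.8 and 88.1 CPM in Dhx37-/-, above every library of every other class apart from spermatogonia. Spermatogonia held 0 and 0 CPM in WT, and 87.2 and 209 CPM in Dhx37-/-. These rest on 0, 0, 7 and 47 UMIs, and the WT counts of 0 allow up to 47.6 and 95.9 CPM. Spermatogonia exceeded Leydig, macrophage, fibroblast, spermatocyte and elongating spermatid nuclei in Gfra1, by 1.57 to 3.26 on the log2 scale, and all 5 calls were lost without Dhx37-/- replicate 2. The difference from spermatocytes then turned to -0.25 (adjusted p = 0.784), and this call was also lost in the DESeq2 Wald test (1.08, adjusted p = 0.0603) and after free RNA was subtracted (1.34, adjusted p = 0.139). Against round spermatids the difference was -0.53 ± 0.35 (edgeR adjusted p = 0.188). At 2000 UMIs a nucleus, 17.2% of WT and 14.7% of Dhx37-/- round spermatids held a Gfra1 UMI, compared with 1.05% and 2.06% of Leydig nuclei.

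Ret, the kinase of the GDNF receptor, gave 89 UMIs in all nuclei kept. Spermatogonia held 0, 0, 1 and 4 of them, which made 5.62% of its UMIs from 0.272% of all UMIs, and round spermatids held 21. In the 13 spermatogonia with a Gfra1 UMI, 3 also had a Ret UMI.

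The spermatogonia were further divided by markers of undifferentiated and differentiating stages that did not include Gfra1, Ret or Kit. Undifferentiated spermatogonia numbered 4, 4, 6 and 14 nuclei in WT replicates 1 and 2 and Dhx37-/- replicates 1 and 2. They held 0 and 0 CPM of Gfra1 in WT, and 427 and 497 CPM in Dhx37-/-, and no Kit UMI in any library. Differentiating spermatogonia numbered 14, 5, 13 and 32 nuclei. They held 124, 0, 196 and 159 CPM of Kit, and 0, 0, 15.1 and 57.7 CPM of Gfra1. In both Dhx37-/- libraries the Gfra1 interval of the undifferentiated stage lay above that of the differentiating stage (157 to 929 against 0.382 to 84.1 CPM, and 353 to 679 against 24.9 to 114 CPM, 95% Poisson). In Dhx37-/- replicate 1, however, the 7 Gfra1 UMIs lay in 2 nuclei, so the 6 of the undifferentiated stage came from 1 nucleus, and its Poisson interval does not cover the spread between nuclei. Kit ran the other way in Dhx37-/- replicate 2, where the undifferentiated nuclei, by the limit of 3 counts, allowed up to 38.2 CPM against 99.4 to 240 CPM in the differentiating nuclei. In Dhx37-/- replicate 1, 6 undifferentiated nuclei allowed up to 213 CPM of Kit, above the 196 CPM of the differentiating nuclei, so lower Kit was not detectable there. Of 94 spermatogonia, 13 held Gfra1 and 25 held Kit, and 0 held both, where the product of the shares gives 3.46 nuclei. None of the 10 genes had enough counts for the test between stages. The WT undifferentiated nuclei, 4 a library, allowed up to 206 and 201 CPM of either gene by the same limit, so neither Gfra1 below that level nor a genotype difference in Kit could be read there.

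**Figure D2:**
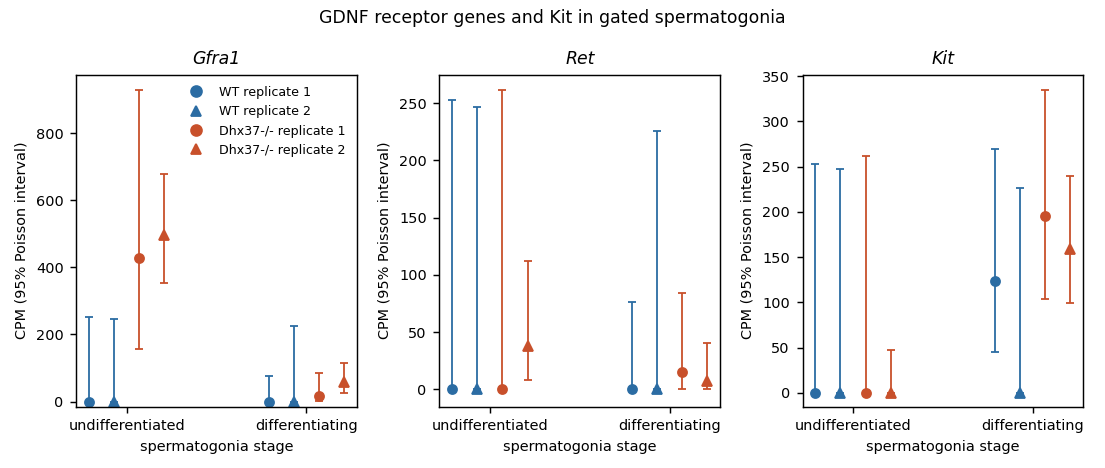
Gfra1, Ret and Kit (y axis, CPM) in undifferentiated and differentiating spermatogonia (x axis). Each point is 1 library in the colours of its genotype and each line its 95% Poisson interval, which covers counting error only. Gfra1 stood at 427 and 497 CPM in the undifferentiated stage of the Dhx37-/- libraries, the former from a single nucleus with 6 UMIs, where Kit had no UMI, and both WT libraries stood at 0 from 4 nuclei each.

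Cxcl12 was an endothelial and interstitial transcript. Endothelial nuclei held 576 and 663 CPM in WT, and 415 and 233 CPM in Dhx37-/-. Fibroblast nuclei held 142, 151, 142 and 161 CPM, and Leydig nuclei 95.9, 119, 117 and 133 CPM. The 4 libraries kept these 3 classes apart without overlap. Sertoli nuclei held 0, 0, 4 and 1 UMI. Sertoli nuclei were lower than endothelial nuclei in the fit of all 12 classes, with a log2 difference of -7.87 ± 0.44 (edgeR adjusted p = 1.32e-26). In that comparison 32.8% of all genes were called and 3 of the 7 niche genes. They were also lower than fibroblast nuclei, with a difference of -6.49 ± 0.41 (adjusted p = 4.40e-20), in a comparison that called 38.3% of all genes and 5 of the 7 niche genes.

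Cxcr4, the receptor gene for CXCL12, was close to the limit of what these libraries can show, with 108 UMIs in all. Macrophage nuclei, immune cells that are known to carry CXCR4, held 8.84, 13.4, 8.37 and 12.2 CPM, the highest mean of the 12 classes, and their range overlapped that of Sertoli nuclei, which held 0 to 8.40 CPM. No Cxcr4 UMI was read in T cells or in spermatogonia. The 94 spermatogonia together allow a level of up to 7.52 CPM, so Cxcr4 in spermatogonia below that level was not detectable at this depth. The 74 T cell nuclei allow up to 14.9 CPM.

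The beta subunit genes of inhibin and activin stood highest in different classes, and the alpha subunit gene was shared by several. Inha measured 61.6 and 81.3 CPM in WT Sertoli nuclei, and 72.3 and 67.9 CPM in Dhx37-/- Sertoli nuclei. Leydig nuclei held 78.1, 59.7, 65.9 and 66.0 CPM, which overlapped the Sertoli libraries and differed from them by -0.15 ± 0.23 on the log2 scale, Sertoli minus Leydig (edgeR adjusted p = 0.682). Inha was higher in Sertoli nuclei than in the other 6 classes of the fit, by 1.51 ± 0.28 against fibroblast nuclei and 3.17 ± 0.37 against macrophage nuclei. Peritubular myoid nuclei held 26.9 to 94.0 CPM from 23 UMIs, and Sertoli nuclei exceeded them by 0.96 ± 0.38 (adjusted p = 0.0412) where all 12 classes were fitted. That comparison called 31.3% of all genes and 3 of the 7 niche genes.

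Inhbb, the beta subunit of inhibin B, was the one gene of the 7 that passed the test in Sertoli nuclei against every other class of the fit. Sertoli nuclei held 25.2 and 18.1 CPM in WT, and 53.3 and 42.5 CPM in Dhx37-/-, from 9, 2, 59 and 82 UMIs. Fibroblast nuclei held 1.87, 0, 19.1 and 7.38 CPM and were 2.43 ± 0.41 lower on the log2 scale (edgeR adjusted p = 2.08e-06). Leydig nuclei gave 0 UMIs in all 4 libraries, so that the pooled Sertoli level of 43.4 CPM was at least 76.7-fold higher than 3 counts over the Leydig libraries would give. The alpha subunit of inhibin was thus read in Sertoli and Leydig nuclei alike, and its beta B partner in Sertoli nuclei without a UMI in Leydig nuclei. Inha was found in 169 and Inhbb in 129 of 458 Sertoli nuclei, with both in 57, where the product of the shares gives 47.6.

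Inhba, the subunit of activin A, was read in fibroblast nuclei at 54.3 and 79.8 CPM in WT, and at 58.5 and 72.0 CPM in Dhx37-/-. Every library of the other 11 classes was below the lowest of these. Sertoli nuclei had 0 UMIs in all 4 libraries, which makes the pooled fibroblast level of 63.3 CPM at least 74.0-fold higher than 3 counts over the Sertoli libraries. Elongating spermatids were next with a mean of 2.17 CPM.

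**Figure D3:**
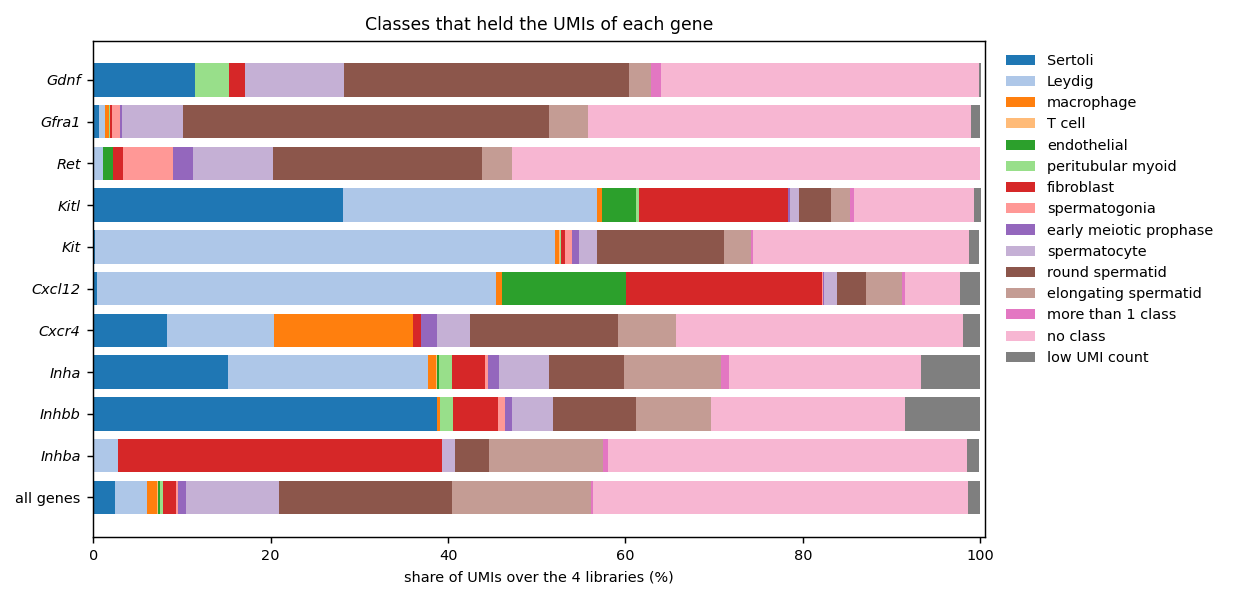
Share of each gene's UMIs that came from each class of nuclei, over the 4 libraries together (x axis, percent), with the share of all UMIs in the bottom bar. Pooled over genotypes, Leydig nuclei held 51.9% of the Kit UMIs and 45.1% of the Cxcl12 UMIs from 3.61% of all UMIs, and Sertoli nuclei held 38.8% of the Inhbb UMIs from 2.39%, of which 141 of 152 UMIs came from the Dhx37-/- libraries.

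A class that is rare can be a small source even where its level is high. These shares also follow the number of nuclei that each genotype gave to a class, so they are given by genotype. Of the Kitl UMIs, Sertoli nuclei gave 12.2% in WT and 35.9% in Dhx37-/-, Leydig nuclei 27.1% and 29.3%, fibroblast nuclei 17.5% and 16.5%, and endothelial nuclei 9.85% and 0.999%. Leydig nuclei gave more Kitl UMIs than Sertoli nuclei in both WT libraries. In Dhx37-/- they gave more in replicate 1 (31.4% against 27.4%) and fewer in replicate 2 (27.7% against 42.1%). By library the Sertoli share was at most 12.6% in WT, and 27.4% and 42.1% in Dhx37-/-. Of the Inhbb UMIs, Sertoli nuclei gave 11 of 84 in WT (13.1%) and 141 of 308 in Dhx37-/- (45.8%). Leydig nuclei gave 40.8% and 59.5% of the Kit UMIs, and spermatogonia 0.282% and 1.13%. For Cxcl12, Leydig nuclei gave 30.9% and 52.7%, fibroblast nuclei 22.8% and 21.8%, and endothelial nuclei 29.5% and 5.70%. Round spermatids gave 34.3% and 48.8% of the Gfra1 UMIs. Nuclei in no class held 42.3% of all UMIs and between 6.12% (Cxcl12) and 52.8% (Ret) of the UMIs of a niche gene.

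RNA that floats free in the suspension enters every droplet, so the 10 genes were also read in barcodes too poor to be nuclei. In somatic nuclei, free RNA was estimated at 470 to 836 UMIs a nucleus, or 10.6% to 21.1% of their UMIs. Inha was higher in free RNA than in nuclei by a ratio of 2.90 and 4.67 in WT, and 2.44 and 2.28 in Dhx37-/-. Inhbb had ratios of 3.14, 5.63, 1.34 and 1.90, and Cxcr4 had ratios of 2.00, 7.28, 2.45 and 3.07. All 4 libraries were thus above 1 for these 3 genes and for Gfra1 and Cxcl12. Inhba, at 0.518 to 0.708, and Kitl, at 0.397 to 0.994, were below 1 in every library. After the estimated free RNA was subtracted, the calls of Kit in Sertoli nuclei below macrophage and fibroblast nuclei were lost, as were 4 calls in spermatogonia (Kit and Kitl against round spermatids, Kitl against macrophage nuclei and Gfra1 against spermatocytes). No call of Inha, Inhbb, Inhba or Cxcl12 between classes was lost.

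**Figure D4:**
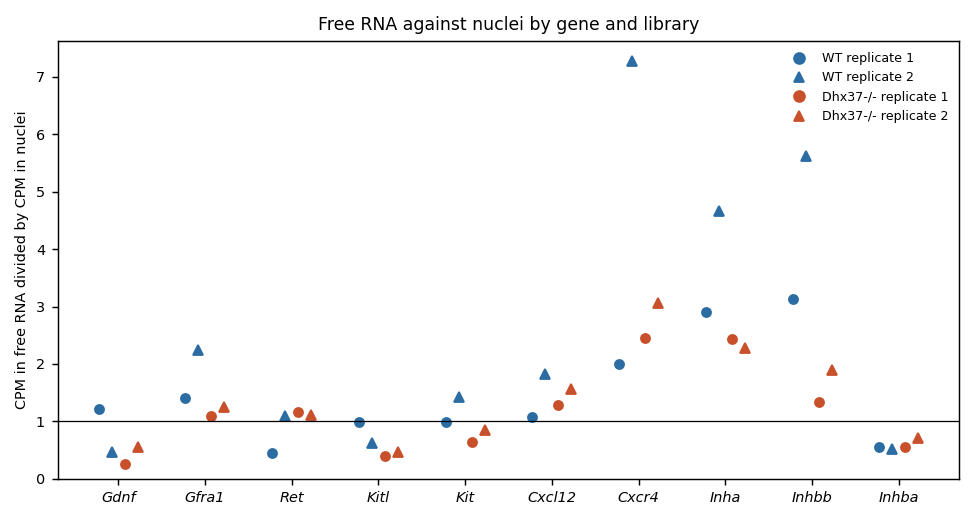
Ratio of CPM in free RNA to CPM in nuclei (y axis) for each gene (x axis), with 1 point a library in the colours of its genotype and a line at 1. Inha, Inhbb and Cxcr4 were above the line in all 4 libraries, with the highest values, 4.67, 5.63 and 7.28, in WT replicate 2.

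Between genotypes, none of the 10 genes passed the test in the main fit of any of the 8 classes tested or over all nuclei. Some of their fold changes did pass under alternative settings of the processing. In Sertoli nuclei, the cells that lose Dhx37, edgeR called 0 of 10004 genes (0%), although 764 had an unadjusted p under 0.05. Of the 5 niche genes tested there, Inhbb measured 21.6 ± 5.06 CPM in WT and 47.9 ± 7.65 CPM in Dhx37-/- (SD, n = 2 each). Its 2 Dhx37-/- libraries were above both WT libraries, with a log2 fold change of 0.93 ± 0.49, a 95% interval of -0.04 to 1.90 and an adjusted p of 0.689. Gdnf likewise measured 5.92 ± 4.41 CPM in WT and 14.2 ± 0.33 CPM in Dhx37-/-, without overlap, but the WT values rested on 1 UMI in each library (log2 fold change 1.59 ± 0.97, adjusted p = 0.721). Gdnf passed the filter on low counts only through the 2 Dhx37-/- libraries, where it was higher, so its direction is given as a description. For Inhbb and Gdnf alike, the share of all genes without overlap was not computed. Kitl measured 574 ± 158 and 473 ± 59.8 CPM and its libraries overlapped (-0.31 ± 0.31, interval -0.92 to 0.30, adjusted p = 0.867). Inha was at 71.5 ± 13.9 and 70.1 ± 3.12 CPM, a log2 fold change of -0.03 ± 0.36 with an interval of -0.74 to 0.67. Gfra1 had a log2 fold change of -0.46 ± 0.87 (adjusted p = 0.953). The marker lists of the other 11 classes were also summed in these Sertoli nuclei. For 6 of the 11 lists the genotypes did not overlap. The elongating spermatid markers stood at 1790 and 2944 CPM in WT and at 5676 and 3361 CPM in Dhx37-/-, and the Leydig markers at 72.8 and 72.3, then 165 and 153 CPM. The round spermatid, spermatogonia and fibroblast lists were likewise higher in both Dhx37-/- libraries, at 216 and 217 against 336 and 252 CPM, 521 and 497 against 560 and 544 CPM, and 30.8 and 18.1 against 40.7 and 42.5 CPM. The endothelial list was lower, at 39.2 and 72.3 against 28.0 and 30.6 CPM. The other 5 lists overlapped, among them the macrophage list at 443, 370, 383 and 412 CPM. Their part in the genotype values was not tested.

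**Figure D5:**
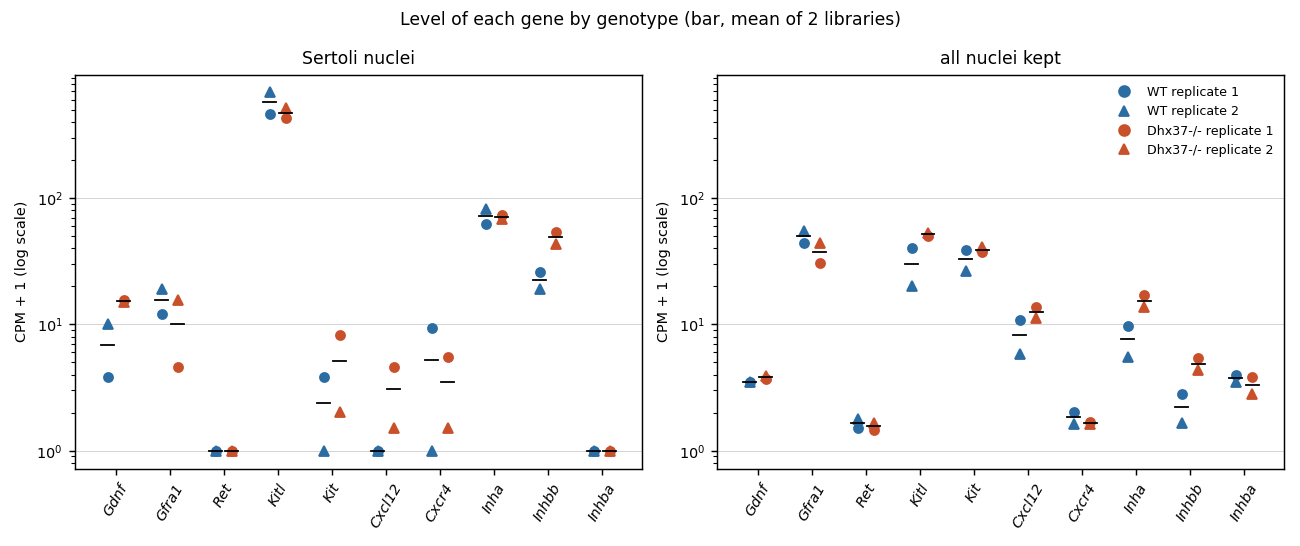
Level of each gene (y axis, CPM + 1 on a log scale) in Sertoli nuclei and over all nuclei kept, with 1 point a library, blue for WT and red for Dhx37-/-, and a bar at the mean of 2 libraries. In Sertoli nuclei the Inhbb libraries of the genotypes do not overlap and those of Kitl and Inha do. Over all nuclei Gdnf, Kitl, Cxcl12, Inha and Inhbb are higher in both Dhx37-/- libraries.

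In Leydig nuclei 0 of 13206 genes (0%) and none of the 5 niche genes tested were called. Kit measured 560 ± 82.7 CPM in WT and 482 ± 8.68 CPM in Dhx37-/- (log2 fold change -0.26 ± 0.31), and Kitl 354 ± 27.4 and 314 ± 11.1 CPM (-0.22 ± 0.29). In fibroblast nuclei 0 of 9760 genes (0%) and none of 4 niche genes were called, with Kitl at 0.05 ± 0.21, Cxcl12 at -0.01 ± 0.23 and Inhba at -0.05 ± 0.33 on the log2 scale. The genotype change of Kitl in Sertoli nuclei differed from that in Leydig nuclei by -0.08 ± 0.31 (edgeR adjusted p = 1), where 0.0217% of all genes and none of the 7 niche genes tested were called. It differed from that in fibroblast nuclei by -0.31 ± 0.34 (adjusted p = 0.995), where 0.0527% of all genes and none of 5 niche genes were called. In macrophage nuclei no niche gene had enough counts, and 0 of 9092 genes (0%) were called. In spermatogonia, the cells that carry most of the receptors by textbook knowledge, 1953 genes had enough counts, none of the 10 was among them, and 1 gene (0.0512%) was called. That gene, Gm13169, is no niche gene and was named because it was the single call.

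The endothelial, peritubular myoid, T cell and early meiotic classes had fewer than 20 nuclei in at least 1 library and were not tested between genotypes. Sertoli nuclei and spermatogonia also fell below this limit but were tested all the same. Among the classes not tested, endothelial nuclei held Kitl at 845 and 679 CPM in WT and at 274 and 465 CPM in Dhx37-/-. Their Cxcl12 was at 576 and 663 CPM, then 415 and 233 CPM. Both genes were thus lower in both Dhx37-/- libraries, from 66, 18, 37 and 7 nuclei. At 2000 UMIs a nucleus, 67.2% of 67 WT endothelial nuclei (95% exact binomial interval 54.6% to 78.2%) and 34.3% of 35 Dhx37-/- endothelial nuclei (19.1% to 52.2%) held a Kitl UMI. For Cxcl12 the shares were 55.2% (42.6% to 67.4%) and 28.6% (14.6% to 46.3%). These shares pool the nuclei of 2 libraries, leave out 17 WT and 9 Dhx37-/- nuclei that were shallower, and carry no error between libraries. The 9 endothelial markers summed to 5853, 5020, 5480 and 5674 CPM and overlapped between genotypes. In the same nuclei the elongating spermatid markers were at 3752 and 4357 CPM in WT and at 11694 and 11767 CPM in Dhx37-/-, the Leydig markers at 65.8 and 82.8, then 186 and 512 CPM, the macrophage markers at 104 and 149, then 186 and 186 CPM, and the Sertoli markers at 603 and 729, then 592 and 465 CPM. The part of these other markers in the Kitl and Cxcl12 values was not tested.

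In germ cells past the spermatogonia, spermatocytes gave 0 calls among 19075 genes (0%), elongating spermatids 0 among 18798 (0%) and round spermatids 2 among 19342 (0.0103%), and none was a niche gene. The spermatocyte value of Gfra1 was 35.8 ± 2.18 CPM in WT and 23.7 ± 0.294 CPM in Dhx37-/- (log2 fold change -0.62 ± 0.26, edgeR adjusted p = 0.248). That of Inha was 2.64 ± 1.60 and 7.77 ± 0.938 CPM (1.49 ± 0.54, adjusted p = 0.204). Both had libraries that did not overlap between genotypes. The share of all genes without overlap was not computed, so this cannot be read as a result about the 2 genes. In spermatocytes 3683 of the 19075 genes had an unadjusted p under 0.05 in the edgeR test. Inha in free RNA was 25.4 and 21.2 CPM in WT, and 39.4 and 29.2 CPM in Dhx37-/-, and its part in the germ cell values was not tested. Gfra1 in round spermatids, where it is best counted, was at 94.4 ± 14.9 and 84.4 ± 5.14 CPM (-0.22 ± 0.21, interval -0.64 to 0.20).

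Over all nuclei kept, edgeR called 0 of 30033 genes (0%), with 4447 at an unadjusted p under 0.05, and none of the 10 niche genes. In such a sum, more nuclei of a class and more RNA in each nucleus cannot be told apart. Inhbb was at 1.81 and 0.667 CPM in WT, and at 4.40 and 3.38 CPM in Dhx37-/- (log2 fold change 1.54 ± 0.50, adjusted p = 0.304). Inha was at 8.75 and 4.55, then 16.1 and 12.8 CPM (1.02 ± 0.38, adjusted p = 0.314). Kitl was at 39.5 and 19.2, then 49.5 and 52.2 CPM (0.70 ± 0.35, adjusted p = 0.372). In all 3 genes, both Dhx37-/- libraries were above both WT libraries, and WT replicate 2 was the lowest. Cxcl12, at 9.75 and 4.83 against 12.8 and 10.2 CPM, and Gdnf, at 2.52 and 2.48 against 2.73 and 2.90 CPM, were also higher in both. Gfra1, Ret, Kit, Cxcr4 and Inhba overlapped between genotypes, and the share of all genes without overlap was not computed. Without WT replicate 1, the log2 fold changes of Inhbb, Inha, Kitl and Cxcl12 were 2.48, 1.62, 1.36 and 1.20, while a single WT library then stood for its group. The share of Sertoli nuclei was also higher in both Dhx37-/- libraries, at 0.494% and 0.205% of nuclei in WT, and 1.84% and 2.29% in Dhx37-/-. That of Leydig nuclei was at 2.14% and 0.976%, then 3.36% and 2.97%. The shares of T cells, spermatogonia, early meiotic nuclei, spermatocytes and elongating spermatids were likewise higher in both, and the share in no class was lower. An exact permutation test of each of these shares gave a two-sided p of 0.33, the smallest that 2 libraries against 2 can give. The part of these shares in the levels was not tested.

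Of 60 further genes of the same pathways, none was called between genotypes in Sertoli nuclei or in spermatogonia. In spermatogonia 7 of the 60 had enough counts. In Sertoli nuclei 2 of 9 GDNF family genes, 10 of 12 KIT signalling genes, 3 of 5 CXCL12 signalling genes, 6 of 14 activin and inhibin signalling genes and 6 of 20 other niche genes had enough counts. Their median log2 fold changes were -0.12, -0.05, 0.17, -0.32 and -0.18, beside 0.01 over all genes tested. Gab2, an adaptor used by KIT, was at 807, 659, 736 and 831 CPM in Sertoli nuclei (log2 fold change 0.01 ± 0.31). Erbb4, a neuregulin receptor, was at 1130, 686, 1030 and 1130 CPM (0.14 ± 0.33), and Fgfr2, a fibroblast growth factor receptor, at 398, 1170, 856 and 744 CPM (0.04 ± 0.38). Of the activin side, the receptor gene Acvr2a was at 89.7, 63.2, 54.2 and 78.2 CPM, and Smad4, the shared mediator, at 98.1, 63.2, 73.2 and 79.8 CPM. In spermatogonia Igf1r, the receptor of insulin-like growth factor, was at 1210, 512, 523 and 1100 CPM (-0.15 ± 0.42). Gfra2, a GDNF family co-receptor gene, was at 25.2, 36.1, 34.3 and 13.5 CPM in Sertoli nuclei. The genotypes overlapped in each of these 7 genes in the class given. Of all partners tested, the libraries did not overlap between genotypes for 3 of 27 in Sertoli nuclei (1 higher and 2 lower in Dhx37-/-), for 3 of 7 in spermatogonia (all lower) and for 23 of 57 over all nuclei (21 higher and 2 lower). The share of all genes without overlap was not computed, so these counts cannot be read as a result about the partners. The 3 in spermatogonia were Gab2, at 191 and 224 against 174 and 111 CPM (-0.64 ± 0.49, edgeR adjusted p = 0.85), Smad4, at 191 and 224 against 137 and 125 CPM (-0.69 ± 0.48, adjusted p = 0.796), and Nrg3, a neuregulin gene, at 238 and 768 against 49.8 and 111 CPM (-2.34 ± 0.54, adjusted p = 0.16). In Sertoli nuclei Fgfr1, a fibroblast growth factor receptor gene, was at 50.4 and 117 against 33.4 and 33.7 CPM (-1.16 ± 0.43, adjusted p = 0.533). Nrg3 and Fgfr1 were named after their values were seen. Over all nuclei Nrg3 was higher than in spermatogonia and also lower in both Dhx37-/- libraries, at 1770 and 1820 against 1440 and 1310 CPM. The part of free RNA in its spermatogonia values was not tested.

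The patterns over classes can be set beside those of other genes by the Pearson correlation of log2(CPM + 10) over the 48 sums of 12 classes in 4 libraries, which share libraries and depth and are given as a description. Closest to Inhba were Avpr1a (0.99), Lvrn (0.99) and Apod (0.98). Closest to Cxcl12 were Zfp521 (0.94), Lama4 (0.93) and the endothelial gate marker Cdh5 (0.88). Inha was closest to 1500009L16Rik (0.90) and to Gata4 (0.87), a transcription factor gene of testis somatic cells, and Kit to Snhg11 (0.91). Kitl was closest to C430049B03Rik (0.90), Ret to Igfbpl1 (0.90), and Cxcr4 to the macrophage gate marker Cd163 (0.87). Ret, Igfbpl1 and Cxcr4 had only 89, 122 and 108 UMIs in all, against 6085 for Kitl. Values of such sparse genes rest on few counts and do not rank with the others. Gdnf was closest to Ifnlr1 (0.87). The lowest leading values were those of Gfra1 (0.83 with Tchh) and Inhbb (0.82 with Gm13944).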

How the data were processed

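Whole testis nuclei had been profiled in 2 WT and 2 Dhx37-/- libraries by single-nucleus RNA-seq with a droplet 3′ kit (10x Genomics, version 3). The authors deposited raw UMI counts per gene and barcode, for all barcodes observed and without normalization. The matrix header names Cell Ranger 7.2.0, the submitters' processing notes name Seurat 3.1.1 and the genome build GRCm38, and the methods name a later build, so no coordinate is given. Whether intronic reads were counted is not given in the sources used here.

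Barcodes were kept as nuclei by total UMIs or, below that step, by a test against free RNA (adjusted p under 0.01), and then by the study's filter (500 to 5000 genes, no fewer than 500 UMIs, and a mitochondrial share of at most 25%). No doublet caller was run. The upper limit on genes removed 13 to 302 barcodes a library, and nuclei with markers of more than 1 class were set aside. Classes were gated by markers (at least 3 distinct markers, with a likelihood score of at least 8 for somatic and 6 for spermatogonia and early meiotic nuclei, and a margin of 3 over the next class). Nuclei with fewer UMIs than their library's median divided by 3 were not gated. The limits of the gate were set after the data were seen. The members, partner lists and tests were chosen with earlier results of these data known, and the tests then followed a written plan. UMI counts were summed per class and library and tested with edgeR 4.0.16 in R 4.3.3 (TMM, filterByExpr, quasi-likelihood, two-sided, Benjamini-Hochberg over all genes tested, threshold 0.05), without a block between genotypes and with library as a block between classes. The study tested nuclei as replicates, and sums per library were used here instead. Classes with at least 20 nuclei in every library were tested, plus Sertoli nuclei and spermatogonia. DESeq2 1.42.0 was an alternative. The fits were checked on simulated counts. CPM is UMIs per 1000000 UMIs of the same nuclei. Intervals of levels and shares are 95% exact Poisson or binomial intervals and the limit for a count of 0 is 3 counts, and both cover counting error only. Intervals of log2 fold changes are 95% normal intervals from the SE of the edgeR fit, which can be too narrow with 2 libraries a group. The biological replicates are named so by the labels, and p-values measure the spread between 2 libraries a group. Named genes were the 10 members, up to 3 partners per pathway with the highest mean CPM in Sertoli nuclei or spermatogonia, and for each member up to 3 genes with the most similar pattern over classes. No protein sequences were used, and promoters were not examined.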

Additional observations from a re-analysis of the deposited data

Results flagged for a closer look

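Of the barcodes with fewer UMIs than their library's median divided by 3, which entered no class and no comparison of classes but were part of the sum over all nuclei, 112 held the Sertoli markers of the gate, at a mean of 849 UMIs a barcode. They were looked at because such barcodes lie outside the gated nuclei and yet held UMIs of 3 niche genes above the 3 counts that a count of 0 allows. Inha stood there at 305 CPM (95% Poisson interval 204 to 438), against 69.1 CPM in Sertoli nuclei (60.6 to 78.3) and 29.5 CPM in free RNA. Inhbb stood at 116 CPM (57.8 to 207), against 43.4 CPM in Sertoli nuclei (36.8 to 50.8) and 5.58 CPM in free RNA. Kitl, at 116 CPM (57.8 to 207), was below the 489 CPM of Sertoli nuclei (466 to 513) and above the 25.8 CPM of free RNA. The intervals of both inhibin subunit genes were above those of Sertoli nuclei and that of Kitl was below, and the intervals cover counting error only. The 3 values rest on 29, 11 and 11 UMIs, the libraries were pooled, and the difference from gated nuclei was not tested over libraries.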

How the results depend on the processing

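Without a filter on low counts, edgeR called 12 genes between genotypes in Sertoli nuclei, 7 in spermatogonia, 29 in Leydig, 129 in macrophage, 72 in fibroblast, 56 in round spermatid and 144 in elongating spermatid nuclei, 128 over all nuclei and 1 between spermatogonia stages (3 with the filter). In Sertoli nuclei, the study's filter alone, 1 more distinct marker in the gate and DESeq2's size factors called 1 gene each. The DESeq2 Wald test called 2 genes in spermatogonia, 1 in Leydig, 2 in macrophage, 2 in fibroblast, 192 in spermatocyte, 17 in round spermatid and 39 in elongating spermatid nuclei, and 272 over all nuclei. In spermatocytes, 1 more distinct marker gave 4 calls and subtracting free RNA 8, and over all nuclei the latter gave 1. It also moved Cxcr4 in macrophages to 13.2 CPM and Inhba in fibroblasts to 78.9 CPM.

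The deviations of same-numbered libraries correlated at -0.0398 in Sertoli nuclei, -0.138 in spermatogonia and -0.188 over all nuclei. With 2 libraries a group, such a correlation cannot show how the libraries were prepared. The labels name replicates without stating a pairing, so whether the numbers pair libraries is not known. With the replicate number as a block, 0 genes were called in Sertoli nuclei, 1 in spermatogonia, 38 in fibroblast, 36 in macrophage, 94 in spermatocyte, 6 in elongating and 0 in round spermatid nuclei, and 8 over all nuclei. With crossed numbers as the block, 1 gene was called in spermatogonia and 886 over all nuclei. The class and stage comparisons already had library as a block.

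Leaving out 1 library leaves a single library, assumed to vary like the others, in its arm. Calls between genotypes then ran from 0 to 167 in Sertoli nuclei, 0 to 14 in spermatogonia, 0 to 44 in Leydig, 37 to 352 in macrophage, 7 to 535 in fibroblast, 0 to 2725 in spermatocyte, 5 to 1578 in round spermatid and 1 to 2735 in elongating spermatid nuclei, and 18 to 5824 over all nuclei. The highest count came in each case without WT replicate 1 or 2. Calls between classes ran from 3568 to 5564 in Sertoli nuclei against spermatogonia, and in spermatogonia from 3562 to 5473 against Leydig, 3387 to 5214 against macrophage and 3023 to 4632 against fibroblast nuclei, and between stages from 0 to 9.

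Some fold changes of niche genes between genotypes were not called in the main fits but passed under an alternative setting. The log2 fold changes between genotypes that changed sign are the following, and none of them passed the test in that comparison under any of these settings. Inha in Sertoli nuclei went to 0.06 with no scaling beyond the library total and 0.09 without a filter, and from -0.17 to 0.05 with 1 library left out. In fibroblast nuclei these 3 settings gave Cxcl12 0.05, 0.07 and -0.08 to 0.09, and Inhba 0.01, 0.03 and -0.35 to 0.20. With 1 more distinct marker Inhba was at 0.14 and Kitl at -0.03, and Kitl ran from -0.21 to 0.34 with 1 library left out. In Leydig nuclei Cxcl12 ran from -0.02 to 0.40 and Inha from -0.23 to 0.05. Over all nuclei Gdnf ran from -0.02 to 0.16 and Kit from -0.17 to 0.54, and Cxcr4 went to 0.06 after free RNA was subtracted. Differences in class shares, in percentage points, ran from -0.258 to 0.575 (macrophage), -0.421 to 0.0276 (endothelial), -0.0422 to 0.319 (peritubular myoid) and -2.22 to 8.60 (round spermatid). The cause was not tested. The fit of all 12 classes, the test of differences between classes and the crossed block were chosen after seeing the data. The few Sertoli nuclei and spermatogonia in WT limit the depth.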
